A study of Homo sapiens with 12 samples.

Results

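The transcripts described here are those of 10 genes that encode the CNC-bZIP transcription factors related to NRF2, their dimerisation partners and their regulators: NFE2L1, NFE2L2, NFE2L3, BACH1, KEAP1, CUL3, SQSTM1, MAFF, MAFG and MAFK. They were chosen by name as members of this pathway, with earlier results of these data known, as were the gene lists used below. All 10 were found among the 54127 genes counted and were among the 14505 genes with enough reads to be tested. RNAseq was performed on C4-2 cells, an androgen-responsive prostate cancer line derived from LNCaP, to ask how the transcriptome responds when the kinase activity of PBK (PDZ domain binding kinase, also called TOPK) is blocked. Cells in RPMI medium with FBS received DMSO vehicle or 1 µM PBKi (HI-TOPK-032, called TOPK32 in the labels), a catalytic PBK inhibitor, for 6 h, with 6 libraries per group. The study rests on 1 cell line, and the sources do not say that the 6 libraries of a group came from separate cultures, so the p-values measure the spread between these libraries, which may be technical.

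NRF2, the protein of NFE2L2, is made continuously and is normally destroyed: KEAP1 holds it and presents it to the CUL3 ubiquitin ligase. When electrophiles or oxidants modify KEAP1, or when the autophagy receptor p62 (SQSTM1) occupies it, NRF2 accumulates, pairs with a small MAF protein (MAFF, MAFG or MAFK) and binds antioxidant response elements in genes of glutathione, thioredoxin, NADPH and iron metabolism. BACH1 pairs with the same small MAF proteins and represses many of the same genes, and NRF1 (NFE2L1) is an endoplasmic reticulum-anchored relative best known for induction of proteasome subunits. Most of this control acts on protein, which was not measured here. RNAseq gives the transcript only.

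The libraries held 9663203 to 28029908 reads on genes. Summed levels of 7 luminal prostate epithelium markers were 2048 to 2427 CPM (CPM is the read count scaled to library size, here after TMM normalisation) in DMSO and 2106 to 2357 CPM in PBKi, while 6 immune markers summed to at most 0.738 CPM in any library and 4 basal markers to at most 1.84 CPM. The defining basal keratin KRT5 had no reads in any DMSO library and 2 to 7 reads in each PBKi library. Of the luminal markers, HOXB13 fell (log2 fold change -0.60, edgeR adjusted p = 2.61e-05), KRT18 fell (-0.21, edgeR adjusted p = 0.0350) and FOLH1 rose (0.33, edgeR adjusted p = 0.000127). Fibroblast markers summed to 19.0 to 25.5 CPM over all libraries, most of it COL1A1, and endothelial markers to 3.14 to 7.25 CPM. KRT14, PDGFRB and VWF, 1 marker each of basal, fibroblast and endothelial cells, fell from means of at most 5.26 CPM, and their part in the results was not tested. DMSO replicate 5 stood apart from its group: it had the fewest reads, came from 3 lanes instead of 4, had the highest DMSO level of NFE2L1, KEAP1, SQSTM1, MAFG and MAFK, and had the lowest DMSO level of NFE2L2 and BACH1. In bulk RNA, fewer cells expressing a gene and less RNA per cell cannot be told apart.

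The antioxidant response element has the core TGACNNNGC, and in the RefSeq promoter windows (250 bases before to 50 bases after a transcript start, GRCh38.p14) this core was present on either strand in 13.3% of 35116 windows. Of the members, 9 had a window in the table (MAFK had none), 18 windows in all, and 2 of these held the core, 1 of KEAP1 and 1 of MAFF. KEAP1 had a pair of windows, and the matches were in the downstream one. The window at its upstream start held none, and neither did the 2000 bases upstream of the MANE Select start on GRCh37. The window with 2 matches is shown because it holds the most of any member window. It lies on the minus strand at chr19:10502722-10503021 of GRCh38.p14, and capitals mark the matches, the second of which reads as the reverse complement of the core.
KEAP1, downstream start: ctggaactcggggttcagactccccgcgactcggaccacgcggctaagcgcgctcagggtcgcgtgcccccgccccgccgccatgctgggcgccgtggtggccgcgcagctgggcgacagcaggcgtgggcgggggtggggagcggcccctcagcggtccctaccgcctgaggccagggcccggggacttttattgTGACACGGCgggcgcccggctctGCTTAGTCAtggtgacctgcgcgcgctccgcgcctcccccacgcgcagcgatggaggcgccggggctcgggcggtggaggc
No window of SQSTM1 held the core. The motif GCTGANTCA, part of a MAF recognition element, was present in 1.36% of all windows and in no member's window, and TCACGTGA, an E-box-type sequence bound by TFEB-family factors, was present in 0.980% of all windows and in 1 member window, that of MAFF.

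The fully specified sequence TGACTCAGC, a form of the core that the NQO1 gene carries, was then looked for on both strands. The search covered the 2000 bases upstream of each gene's MANE Select start on GRCh37 and was chosen after the values were seen. It was present upstream of 303 of 12258 genes (2.47%), among them 5 of the 33 NRF2 target genes listed with a start (15.2%). NQO1 is among these 5, and its match followed from the choice of sequence. The share among targets is therefore a description and not a test. SQSTM1 was the one member with a match, with 2. In the same 2000 bases the core TGACNNNGC was present for 54.0% of genes, 31 of the 33 targets and 5 of the 10 members. These members were CUL3 and SQSTM1 with 2 matches each, and MAFF, MAFG and NFE2L3 with 1 each. The reverse complement of TGACTCAGC is an instance of GCTGANTCA. The stretches of SQSTM1 and of the 5 targets are shown to set the sites of the most strongly changed member beside those of known targets, with TGACTCAGC in capitals and 15 bases on each side. A match is a description of letters and does not show binding.
SQSTM1, chr5:179247538-179247576, minus strand, 348 bases upstream: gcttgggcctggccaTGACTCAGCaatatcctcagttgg
SQSTM1, chr5:179246570-179246608, minus strand, 1316 bases upstream: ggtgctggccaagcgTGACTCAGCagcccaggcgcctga
NQO1, chr16:69760895-69760933, minus strand, 451 bases upstream: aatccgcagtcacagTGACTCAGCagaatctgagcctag
ME1, chr6:84140884-84140922, minus strand, 133 bases upstream: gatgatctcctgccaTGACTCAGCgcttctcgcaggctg
FTL, chr19:49467184-49467222, plus strand, 1363 bases upstream: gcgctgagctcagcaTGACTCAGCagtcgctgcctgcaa
TALDO1, chr11:746496-746534, plus strand, 949 bases upstream: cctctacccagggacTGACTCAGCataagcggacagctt
ABCC1, chr16:16042921-16042959, plus strand, 533 bases upstream: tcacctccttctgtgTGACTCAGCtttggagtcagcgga
The log2 fold changes of these 5 targets with PBKi were 1.41 for NQO1, 1.52 for ME1, 1.37 for FTL, 0.59 for TALDO1 and 0.35 for ABCC1, and each passed the edgeR test at an adjusted p under 0.05.

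Of the 10 members, 7 were upregulated by PBKi, 1 was downregulated and 2 did not pass the test (edgeR's quasi-likelihood test, Benjamini-Hochberg adjusted p under 0.05). Over all genes tested, 41.7% were called, 20.1% up and 21.5% down. The groups of 6 libraries did not overlap for 7 members, 6 of them higher and 1 lower in PBKi, against 20.1% of all genes tested. Each of these 7 had p = 0.00216 by exact permutation (two-sided, on log2 CPM), the smallest that 6 libraries against 6 allow. This value follows from the lack of overlap and is no further evidence. The median log2 fold change was 0.39 over the members and -0.012 over all genes.

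**Figure D1:**
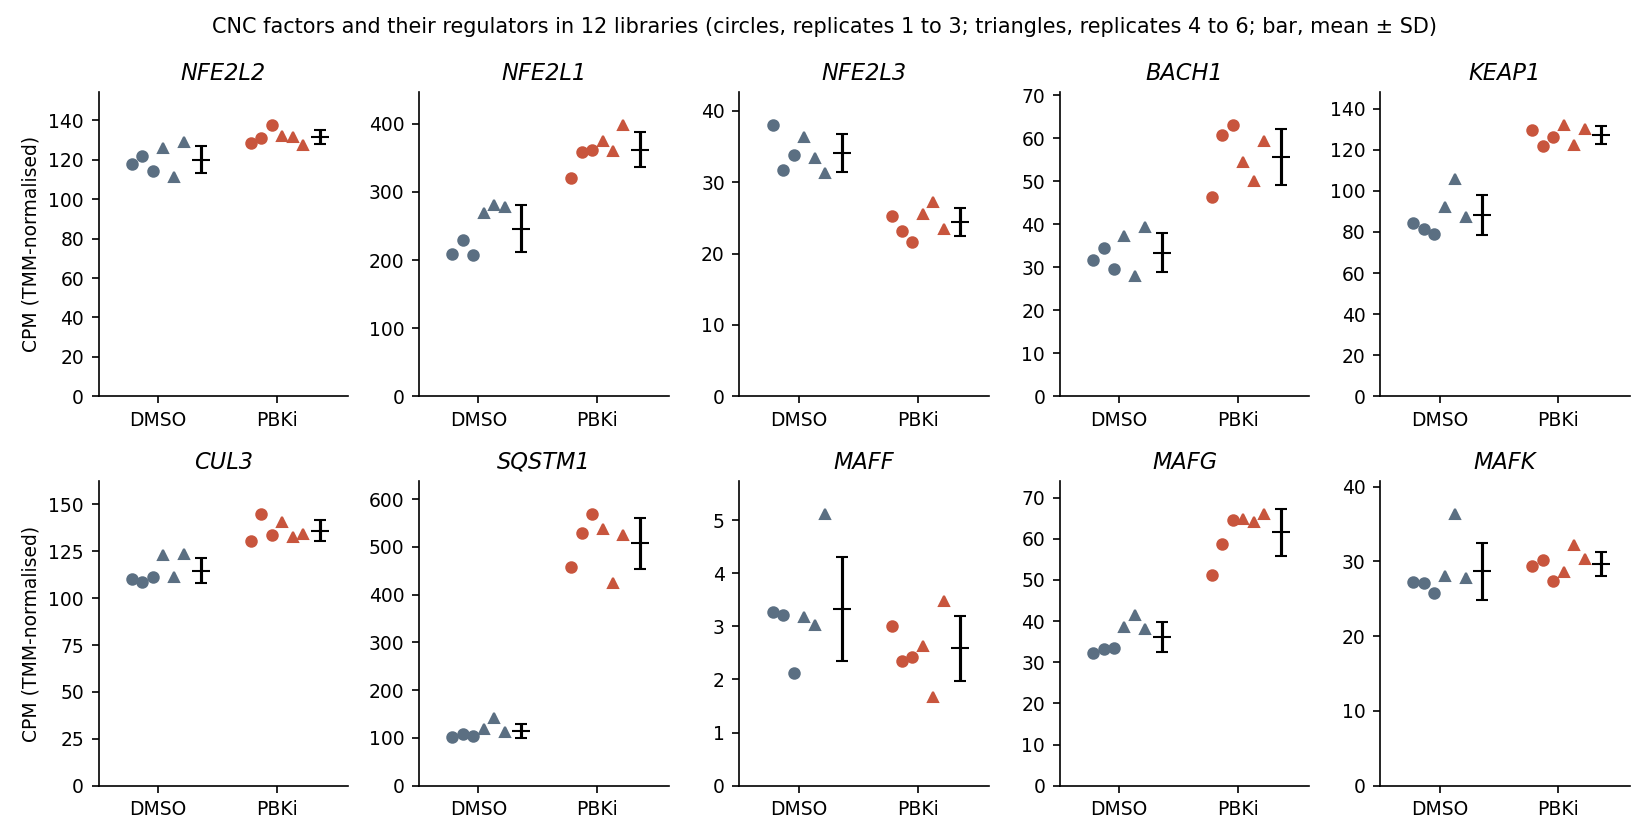
Level of each member in every library in TMM-normalised CPM (y axes start at 0), with DMSO in grey and PBKi in red, circles for replicates 1 to 3, triangles for replicates 4 to 6, and black bars for the mean ± SD (n = 6). SQSTM1 rose from 114 to 507 CPM, whereas the NFE2L2, MAFF and MAFK points of both groups overlapped.

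NFE2L2, which encodes NRF2, changed least among the members that passed the test. Its level was 111 CPM at the lowest, 120 at the median and 129 at the highest in DMSO, and 127, 131 and 138 CPM in PBKi. The ranges overlapped, with 4 of the 6 PBKi libraries above every DMSO library. Its mean rose from 120 ± 6.77 to 131 ± 3.65 CPM (SD, n = 6), a log2 fold change of 0.13 with a standard error of 0.048 and a 95% interval of 0.030 to 0.23 (edgeR adjusted p = 0.0359, exact permutation p = 0.00649). The call was lost in 6 of the 12 fits that left out 1 library (DMSO replicate 1 or 3, or PBKi replicate 2, 3, 4 or 5), in replicates 4 to 6 alone (edgeR adjusted p = 0.442) and when genes with few counts were not filtered out (edgeR adjusted p = 0.153).

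NFE2L1, which encodes NRF1, ranged over 207.9, 249.8 and 281.3 CPM (lowest, median, highest) in DMSO and 320.5, 360.7 and 398.9 CPM in PBKi. All PBKi libraries lay above all DMSO libraries, and within DMSO, replicates 1 to 3 lay below replicates 4 to 6. The mean level rose from 246 ± 34.3 to 362 ± 25.5 CPM (SD, n = 6), a log2 fold change of 0.56 (standard error 0.081, edgeR adjusted p = 2.84e-05).

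NFE2L3, the gene of the related factor NRF3, moved the opposite way. It was at 31.2, 33.6 and 38.0 CPM (lowest, median, highest) in DMSO and 21.7, 24.4 and 27.2 CPM in PBKi, and the groups did not overlap. The mean fell from 34.1 ± 2.66 to 24.4 ± 1.99 CPM (SD, n = 6), a log2 fold change of -0.49 (standard error 0.069, edgeR adjusted p = 2.23e-05). Exons of HNRNPA2B1, an abundant RNA-binding protein gene on the opposite strand, cover 747 of the 3740 bases of the NFE2L3 transcript, and HNRNPA2B1 also fell, with a log2 fold change of -0.43 (edgeR adjusted p = 3.93e-05). The strand setting of the counting is not given in the sources used here, so reads from the shared bases cannot be assigned to one of the pair, and their part in the NFE2L3 result was not tested.

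BACH1, the repressor, was at 27.9, 33.1 and 39.4 CPM (lowest, median, highest) in DMSO and 46.4, 56.8 and 63.1 CPM in PBKi, without overlap. Its mean rose from 33.4 ± 4.48 to 55.7 ± 6.50 CPM (SD, n = 6), a log2 fold change of 0.74 (standard error 0.090, edgeR adjusted p = 4.42e-06). The highest PBKi library was replicate 3 and the lowest was replicate 1.

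Among the regulators of NRF2 stability, KEAP1, the substrate adaptor, was at 78.9, 85.9 and 105.7 CPM (lowest, median, highest) in DMSO and 121.6, 127.7 and 132.2 CPM in PBKi. The groups did not overlap, and the highest DMSO value was that of replicate 5. The mean rose from 88.3 ± 9.65 to 127 ± 4.41 CPM (SD, n = 6), a log2 fold change of 0.53 (standard error 0.063, edgeR adjusted p = 3.77e-06), and without DMSO replicate 5 the log2 fold change was 0.59.

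CUL3, the scaffold of the ligase, was at 108.5, 111.3 and 123.4 CPM (lowest, median, highest) in DMSO and 130.4, 134.0 and 144.9 CPM in PBKi. All PBKi libraries were above all DMSO libraries, though by a small margin. The mean rose from 115 ± 6.71 to 136 ± 5.52 CPM (SD, n = 6), a log2 fold change of 0.25 (standard error 0.050, edgeR adjusted p = 0.000743). In replicates 4 to 6 alone the rise was 0.19 on the log2 scale and did not pass the test (edgeR adjusted p = 0.107).

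SQSTM1 had the largest change of the 10. This autophagy receptor, itself known as an NRF2 target, binds KEAP1. Its level was 102.2, 109.8 and 141.6 CPM (lowest, median, highest) in DMSO and 425.3, 526.8 and 569.2 CPM in PBKi, so that the lowest PBKi library was far above the highest DMSO library. The mean rose from 114 ± 14.7 to 507 ± 54.0 CPM (SD, n = 6), a log2 fold change of 2.15 (standard error 0.086, edgeR adjusted p = 4.29e-12) and a fitted ratio of 4.44 with a 95% interval of 3.92 to 5.04. Taken alone, replicates 1 to 3 gave a log2 fold change of 2.32 and replicates 4 to 6 one of 2.00, a difference that was not tested. Only 13 of the 9998 tested genes whose mean log2 CPM reached 3 had a higher log2 fold change.

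The genome annotation places MRNIP, a DNA repair factor gene, on the strand opposite SQSTM1, with exons over 55.7% of the SQSTM1 transcript. MRNIP was at 14.9 ± 2.69 CPM in DMSO and 19.9 ± 3.04 CPM in PBKi (SD, n = 6), and its log2 fold change of 0.40 passed the test (edgeR adjusted p = 0.0111). The strand setting of the counting is unknown here too, so reads from the shared bases cannot be assigned to one of the pair, and their part in the SQSTM1 result was not tested. Among the genes with the most similar pattern to SQSTM1, by the root mean square difference of 12 log2 CPM values taken relative to the DMSO mean, were OPTN at 0.154 and SLFN5 at 0.167. Optineurin (OPTN) is another autophagy receptor.

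Of the small MAF genes, MAFG rose, and MAFK and MAFF did not pass the test. MAFG was at 32.2, 35.7 and 41.4 CPM (lowest, median, highest) in DMSO and 51.2, 64.3 and 66.0 CPM in PBKi. The groups did not overlap, and the lowest PBKi library was replicate 1. The mean rose from 36.1 ± 3.73 to 61.6 ± 5.69 CPM (SD, n = 6), a log2 fold change of 0.78 (standard error 0.075, edgeR adjusted p = 3.21e-07).

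MAFK was at 25.8, 27.5 and 36.4 CPM (lowest, median, highest) in DMSO and 27.3, 29.8 and 32.2 CPM in PBKi, and the groups overlapped. The means were 28.7 ± 3.83 and 29.6 ± 1.65 CPM (SD, n = 6). The log2 fold change was 0.056 with a 95% interval of -0.10 to 0.22 (edgeR adjusted p = 0.581, exact permutation p = 0.530). The highest DMSO value, of replicate 5, lay apart from the other five, and without it the log2 fold change was 0.13 (edgeR adjusted p = 0.0610). TMEM184A, on the opposite strand, has exons over 23.9% of the MAFK transcript, and its log2 fold change was 0.33 (edgeR adjusted p = 0.00821). The part of shared reads in the MAFK value was not tested.

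MAFF had the fewest reads, 28 to 68 counts per library in DMSO and 25 to 59 in PBKi. Its level was 2.13, 3.20 and 5.12 CPM (lowest, median, highest) in DMSO and 1.68, 2.52 and 3.47 CPM in PBKi, and the ranges overlapped. The log2 fold change was -0.33 with a standard error of 0.196 and a 95% interval of -0.74 to 0.083 (edgeR adjusted p = 0.189, exact permutation p = 0.149). The interval is the widest of the 10.

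**Figure D2:**
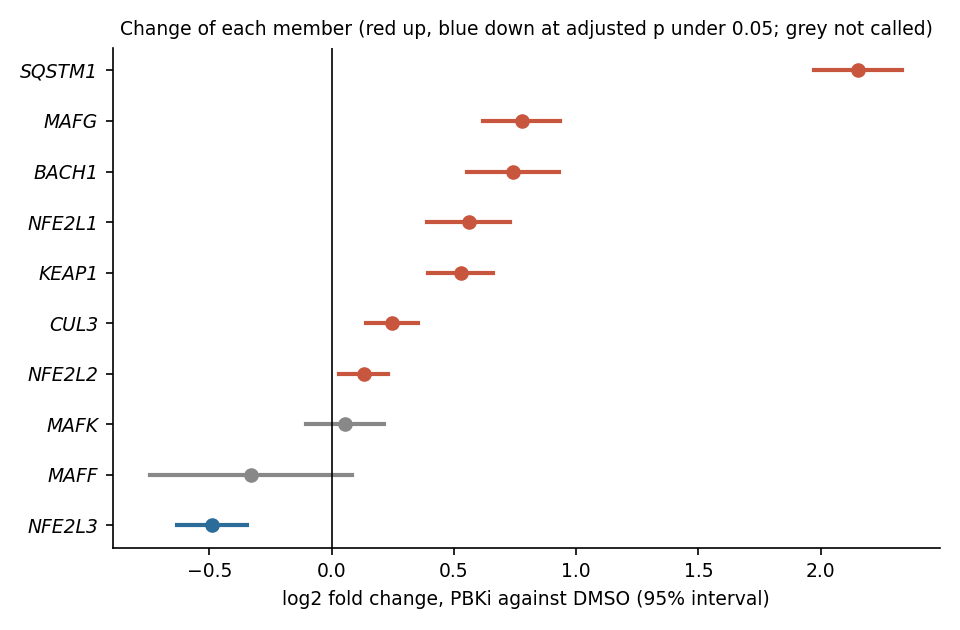
Log2 fold change of PBKi against DMSO for each member with its 95% interval (x axis) from the edgeR fit of 6 libraries per group, in red where upregulated, blue where downregulated and grey where the test was not passed. SQSTM1 stands at 2.15 and NFE2L3 at -0.49, and the intervals of MAFK and MAFF include 0.

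Levels of different genes were compared per length, as CPM per kilobase of the full MANE Select transcript (RPKM). Exons of other genes cover 55.7% of the SQSTM1 transcript and smaller parts of NFE2L2, NFE2L3, MAFF, MAFG and MAFK. Whether reads from the shared bases were counted is not known. Their part in the order of genes, and in the ratios and small MAF shares that follow, was not tested. In DMSO, NFE2L1 (50.8 RPKM), NFE2L2 (49.1), SQSTM1 (40.3) and KEAP1 (34.4) were the most abundant members, and each neighbouring pair in this order had overlapping ranges. CUL3 followed at 17.0 RPKM, apart from its neighbours on either side. NFE2L3 (9.12), MAFK (8.49), MAFG (7.14) and BACH1 (5.95) came next, again with overlapping neighbours, and MAFF was lowest at 1.40 RPKM.

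In PBKi the order by RPKM was SQSTM1 (178.6), NFE2L1 (74.9), NFE2L2 (53.7), KEAP1 (49.5), CUL3 (20.1), MAFG (12.2), BACH1 (9.91), MAFK (8.77), NFE2L3 (6.52) and MAFF (1.09). Here MAFG and BACH1 overlapped, and so did BACH1 and MAFK, while every other neighbouring pair was separate. By these values SQSTM1 moved from the third to the first place, and NFE2L3 moved from the sixth to below MAFG, BACH1 and MAFK. The places of SQSTM1, NFE2L3 and MAFK in both groups are uncertain because of their shared bases.

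The balance between members was described from ratios of RPKM within each library, without a test. The BACH1 level relative to NFE2L2 was 0.121 ± 0.0094 in DMSO and 0.184 ± 0.0197 in PBKi (SD, n = 6), and SQSTM1 relative to KEAP1 was 1.17 ± 0.042 and 3.61 ± 0.377. Neither ratio overlapped between groups. KEAP1 relative to NFE2L2 was 0.705 ± 0.101 in DMSO and 0.923 ± 0.0464 in PBKi, and the ranges overlapped through DMSO replicate 5, at 0.906. NFE2L1 relative to NFE2L2 was 1.04 ± 0.144 and 1.39 ± 0.109, again overlapping through that library.

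The summed level of the small MAF transcripts was 17.0 ± 1.86 RPKM in DMSO and 22.0 ± 1.18 RPKM in PBKi (SD, n = 6), with ranges that met at 20.2 and 20.1 RPKM. Its makeup shifted. MAFG formed 42.0% ± 1.65 of the sum in DMSO and 55.1% ± 2.81 in PBKi, MAFK 49.8% ± 2.52 and 39.9% ± 2.58, and neither share overlapped between groups. MAFF formed 8.21% ± 2.20 and 4.97% ± 1.20, with overlap. MAFK was thus the larger share in every DMSO library and MAFG in every PBKi library. Without division by length, MAFG was the larger share in both groups.

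**Figure D3:**
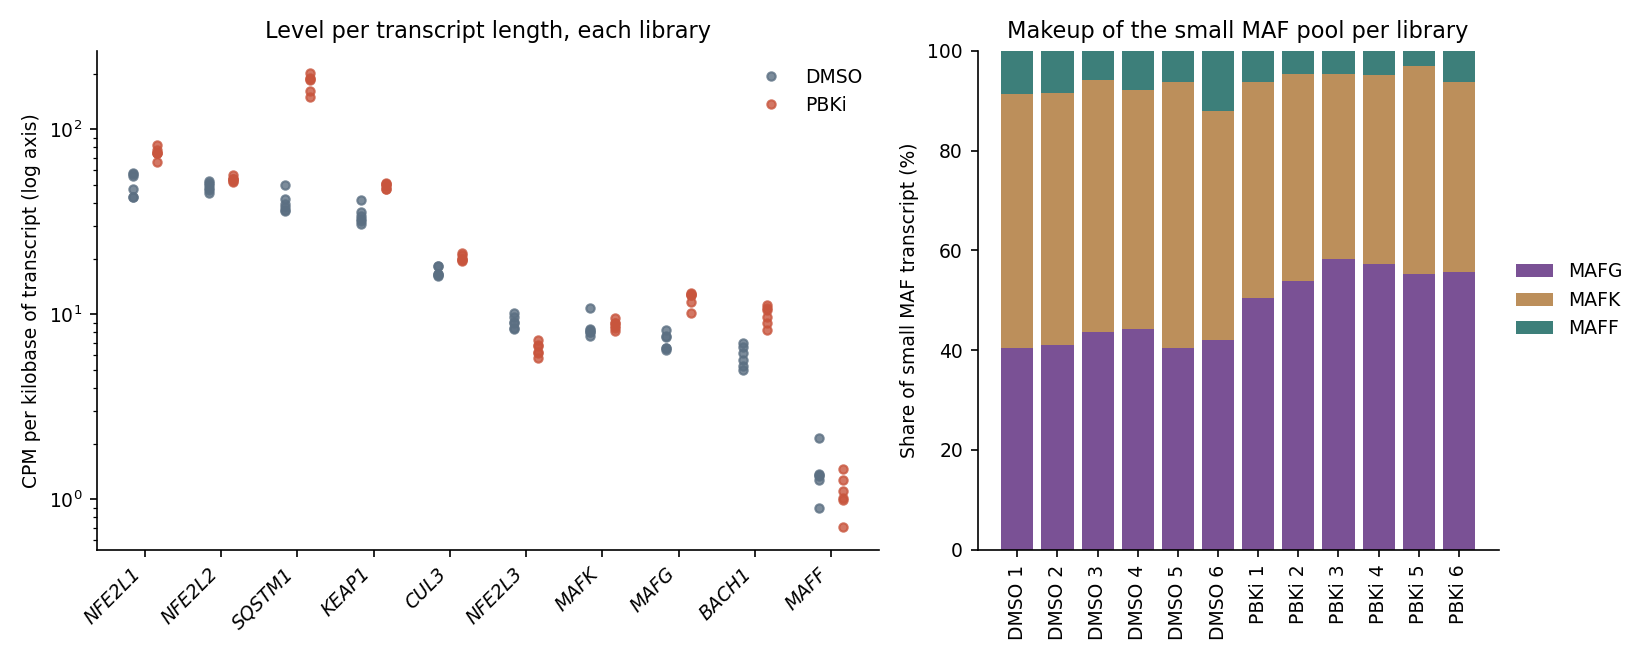
Left, level of each member per transcript length in every library (CPM per kilobase, log axis), DMSO in grey and PBKi in red. Right, share of the summed small MAF level (%) formed by MAFG, MAFK and MAFF in each library, where MAFG forms 40.3 to 44.3% in DMSO and 50.4 to 58.4% in PBKi.

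The genes known to be bound and induced by NRF2 were upregulated almost throughout. Of 36 listed, 34 were tested, and 6 of these had 10 counts in fewer than 3 DMSO libraries. These 6 passed the count filter mostly through the PBKi libraries, so their rise was largely set by the filter. Among the other 28, 26 rose and none fell, where 20.1% of all genes tested were called up and 21.5% down. The list median on the log2 fold change scale was 0.93 against -0.012 for all genes. With the 6 included, 32 of 34 rose and the median was 1.35, figures that the filter favoured. OSGIN1, an oxidative stress-induced growth inhibitor, rose from 6.41 ± 1.05 to 45.9 ± 5.36 CPM (SD, n = 6), a log2 fold change of 2.87. Ferritin heavy chain (FTH1), which stores iron, rose from 132 ± 68.3 to 621 ± 99.1 CPM, and TRIM16L from 9.71 ± 1.22 to 44.5 ± 5.08 CPM. FTH1 has many processed pseudogenes and TRIM16L is a near copy of part of TRIM16, so both counts are uncertain.

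GSTM3 (log2 fold change -0.13, edgeR adjusted p = 0.134) and TXN (0.16, edgeR adjusted p = 0.0899) were the 2 that did not pass. When the model held a term for the set (replicates 1 to 3, or 4 to 6), 33 of the list rose and 1 fell. These counts include the 6 genes with few DMSO reads. The fitted changes highest in this list were of AKR1C1, AKR1C2, AKR1C3 and AKR1B10, singled out after their values were seen. All of them are among the 6 genes with few DMSO reads. Their means in DMSO were at most 0.369 CPM and in PBKi 3.20 to 86.2 CPM. These aldo-keto reductase genes are close copies of one another or of further family members, so the division of reads among them is uncertain.

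All 11 genes listed as repressed by BACH1 rose, where 20.1% of all genes tested were called up. The list median was 1.37 on the log2 fold change scale, against -0.012 for all genes. In the NRF2 list stand 10 of these 11 too. GCLM, the modifier subunit of glutathione synthesis, rose from 113 ± 7.58 to 378 ± 56.1 CPM (SD, n = 6), and TXNRD1, thioredoxin reductase, from 620 ± 46.4 to 2024 ± 239 CPM. ME1, malic enzyme and a source of NADPH, rose from 198 ± 9.77 to 567 ± 73.3 CPM. These genes rose in the same libraries in which the BACH1 transcript itself was higher. Of 4 genes listed for turnover of BACH1, HMOX1, which degrades heme, rose (log2 fold change 1.37, edgeR adjusted p = 8.97e-05) and FBXL17, a ubiquitin ligase receptor, fell (-0.18, edgeR adjusted p = 0.0135), a call lost without DMSO replicate 2.

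Counts of calls in the next lists stand beside the 20.1% up and 21.5% down of all genes tested. Of 10 genes of the KEAP1-CUL3 ligase and of neddylation, the modification that activates cullins, none rose and 3 fell, a share near that of all genes in the downward direction, with a median log2 fold change of -0.068: the RING subunit RBX1 (-0.36), NEDD8 (-0.19) and NAE1, a subunit of the NEDD8-activating enzyme (-0.36). Without DMSO replicate 1, 1 gene of this list fell. Of 7 genes for KEAP1-independent turnover of NRF2, none rose, and 2 fell, again near the share of all genes: the E3 receptor FBXW11 (-0.14) and the endoplasmic reticulum ligase SYVN1 (-0.15). In the fits without DMSO replicate 2, 4, 5 or 6 or PBKi replicate 1 or 3, 1 gene of this list fell. Of 10 genes for proteins that compete for KEAP1 or NRF2 binding, 2 rose, 2 fell and 6 did not pass the test. These shares are near those of all genes, and the median log2 fold change was -0.040. The cell cycle inhibitor CDKN1A rose from 51.0 ± 4.38 to 97.4 ± 6.60 CPM (SD, n = 6), a log2 fold change of 0.94. The peptidase DPP3 rose by 0.24, while the replication helicase subunit MCM3 (-0.44) and prothymosin PTMA (-0.38) fell.

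The proteasome genes, the best known targets of NRF1, moved little. Of 31 tested, 5 rose, none fell and 26 did not pass the test, fewer calls than the 41.7% of all genes, and the median log2 fold change was 0.025. The largest log2 fold changes among those called were 0.31 for PSMD8, 0.20 for PSMD12, 0.18 for PSMD1 and 0.13 for PSMB2, all in the regulatory or core particle. With 1 library left out the number that rose was 3 to 8 (8 without DMSO replicate 3, and 3 without PBKi replicate 1, 2, 3 or 4), and 3 fell without DMSO replicate 5 or 6. Of 9 genes that process or degrade NRF1, the segregase VCP (0.20) and its cofactor NPLOC4 (0.34) rose and SYVN1 fell, a call lost without DMSO replicate 2.

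Among 12 partners and kinases of SQSTM1, 4 rose and 3 fell, with a median log2 fold change of 0.042. These shares are not far from the 20.1% up and 21.5% down of all genes. OPTN rose from 7.27 ± 0.768 to 35.7 ± 6.65 CPM (SD, n = 6), a log2 fold change of 2.32. The autophagosome proteins MAP1LC3B and GABARAPL1 rose by 0.94 and 0.84 on the log2 scale, and PRKCI, an atypical protein kinase C, had a log2 fold change of -0.43. Of 9 NRF2 cofactors, RXRA (0.21) and NCOA3 (0.21) rose and BRCA1 (-0.15) fell, shares close to those of all genes or below them. With 1 library left out, 1 to 4 of these cofactors rose (1 without PBKi replicate 3, and 4 without DMSO replicate 5 or 6 or PBKi replicate 1), and the fall of BRCA1 was lost in 9 of these 12 fits.

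**Figure D4:**
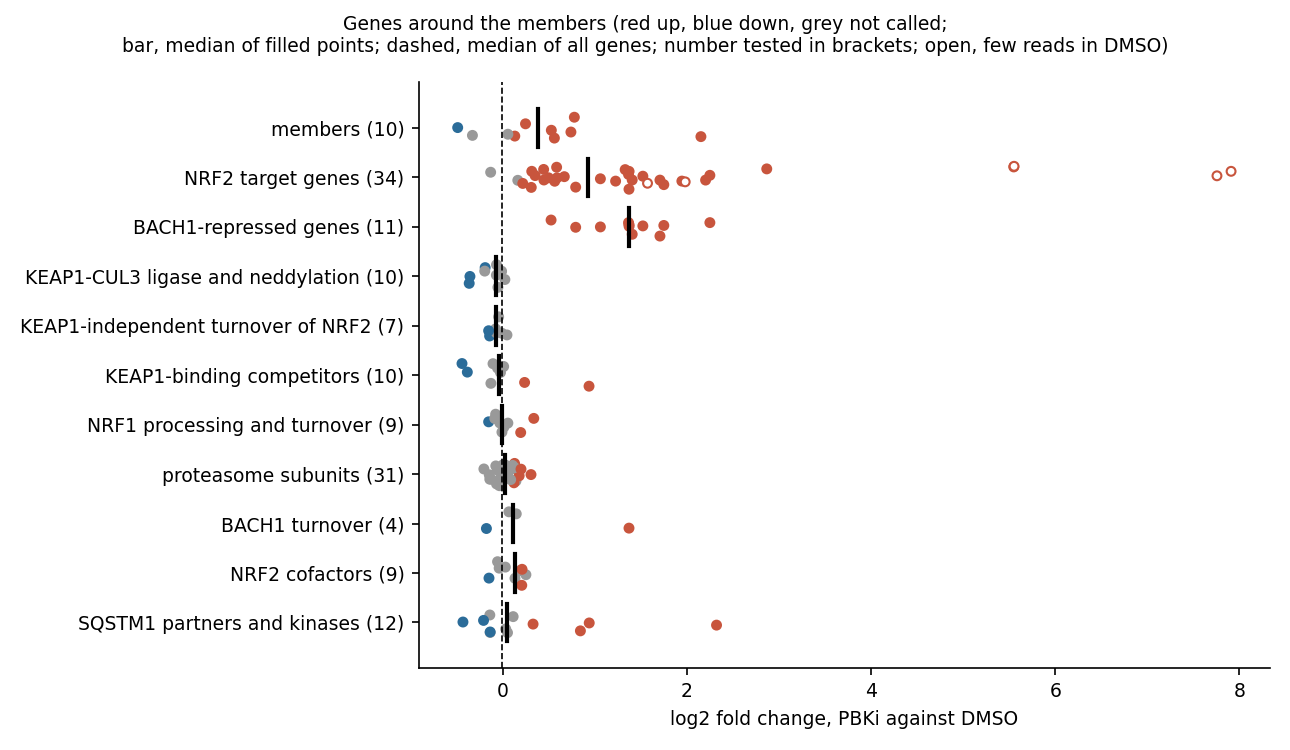
Log2 fold change of PBKi against DMSO (x axis) for each tested gene of the pathway lists (points, red up, blue down, grey not called), open where reads were few in DMSO, with the median of each list's filled points as a bar and the median of all genes, -0.012, as a dashed line. The medians of the NRF2 targets (0.93) and the BACH1-repressed genes (1.37) stand apart from those of the ligase (-0.068) and the proteasome (0.025).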

How the data were processed

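RNAseq libraries from C4-2 cells were analysed, 6 treated with DMSO and 6 with PBKi, grouped by their labels. Per the labels and methods, the authors aligned reads to GRCh37 with TopHat2 (2.0.4) and counted reads per gene with HTSeq (0.5.3p9), and they deposited whole-number counts, without normalisation, for each sequencing lane (47 tables). Counts of a library's lanes agreed within sampling noise (ratio of chi-square to its degrees of freedom 0.990 to 1.02) and were summed. DMSO replicate 5 had 3 lanes and the others 4. Reads outside genes made up 5.74 to 9.30% and ambiguous reads 3.87 to 4.35%. These rows were left out of library sizes. Whether flow sorting named in the labels applied to these cells is not given elsewhere.

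Genes that reached 10 counts in 6 or more libraries were tested with edgeR (4.0.16, R 4.3.3): TMM normalisation, quasi-likelihood test of PBKi against DMSO without covariates, and Benjamini-Hochberg adjustment over all 14505 genes. CPM per kilobase used MANE Select transcripts of GENCODE 44 mapped to GRCh37, whereas the authors used an older annotation. Of the 54127 gene identifiers, 47098 had a symbol. SRXN1, PSMB3 and PECAM1 were not matched. Exact permutation tests were two-sided, on log2 CPM with a prior count of 2. The procedure was tested on simulated counts. Promoter windows came from RefSeq.

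Members and gene lists were chosen with earlier results of these data known. All members were named, and per list up to 4 genes with the largest absolute log2 fold change among those called whose mean log2 CPM reached 3, plus the 3 genes most like the member with the largest change. Some genes that this rule names are not reported here. Alternatives were RLE factors, DESeq2 (1.42.0), limma-voom (limma 3.58.1), other count filters, lanes 6 to 8, a replicate block, a covariate for replicates 1 to 3 against 4 to 6, each of these sets alone, stricter thresholds, and leaving out each library.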

Additional observations from a re-analysis of the deposited data

Results flagged for a closer look

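MAFK in DMSO replicate 5 was at 36.4 CPM, whereas the other 5 DMSO libraries lay between 25.8 and 28.0 CPM. The gap to the nearest library was 0.793 of the range of the group, above Dixon's 95% critical value for a group of 6. This was 1 of 20 groups of values examined (10 genes in 2 treatments), and chance alone flags about 1 group in 20. Its cause was not tested.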

How the results depend on the processing

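Of 220 results of a member under another setting (stricter thresholds aside), 210 kept the direction and the side of the threshold, 9 kept the direction but not the call, and 1, of MAFK, changed sign. For NFE2L2 the log2 fold change was 0.13 without a count filter (edgeR adjusted p = 0.153) and 0.094 in replicates 4 to 6 alone (edgeR adjusted p = 0.442). At 0.13 in the main fit, NFE2L2 was not called at an adjusted p under 0.01. It was not called either when a log2 fold change of 0.5 or more in size was required. Its log2 fold change lay between 0.12 and 0.16 with each library left out, where the call was lost without DMSO replicate 1 or 3 or PBKi replicate 2, 3, 4 or 5. CUL3 was at 0.19 in replicates 4 to 6 alone (adjusted p = 0.107) and, with NFE2L3 (-0.49), missed the 0.5 requirement (0.25), which left 5 members up and 0 down. MAFK was at -0.011 in replicates 4 to 6 alone. The number of members upregulated was 6 to 7, and the number downregulated 1, with each library left out, and 5 and 1 in replicates 4 to 6 alone. Why these calls were lost was not tested.

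With the replicate number as a replicate block, 7 members rose and 1 fell, and over all genes 3485 rose and 3803 fell against 2921 and 3125 without it. Same-numbered libraries correlated at 0.0887 to 0.299 in their deviations from the group means, and 2 DMSO libraries (2 and 5) matched another number best, so the numbers were not treated as pairs. Over all genes, 1273 rose and 1207 fell in replicates 4 to 6 alone, 1278 and 626 at a size of 0.5 or more, and 2073 fell at an adjusted p under 0.01. Among proteasome subunits, 9 rose and 3 fell in the replicate block, against 5 and 0 without it. Among NRF2 targets, 33 rose and 1, GSTM3, fell in the replicate block and with a term for these sets of replicates (1 to 3, 4 to 6). Without these terms 32 rose and 0 fell, and 1 fell in replicates 1 to 3 alone. These counts include the 6 targets with few DMSO reads. Counts of calls in the ligase, turnover, competitor, cofactor and partner lists that moved by over 1.5 times did so by at most 3 genes, and no proteasome gene reached a size of 0.5.

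Without division by transcript length (CPM), BACH1 relative to NFE2L2 was 0.277 in DMSO and 0.424 in PBKi, SQSTM1 relative to KEAP1 1.29 and 4.00, and NFE2L1 relative to NFE2L2 2.05 and 2.76. The shares of the small MAF sum became 4.88% and 2.78% for MAFF, 53.1% and 65.5% for MAFG, and 42.1% and 31.7% for MAFK. The small MAF sum in CPM did not overlap between groups. Depth limited MAFF most, at 25 to 68 counts per library.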
